A study of Mus musculus with 48 samples.

Results

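The genes described here are 10 genes of the unfolded protein response and the integrated stress response: Hspa5, Herpud1, Dnajb9, Xbp1, Atf4, Ddit3, Atf3, Trib3, Asns and Chac1. They were taken by symbol from a liver count table of 55414 genes, and all 10 were among the 15414 genes that passed the filter on low counts. The libraries, each from the liver of a different mouse, come from 48 mice of the FCG model in 8 groups of 6. In FCG mice the testis-determining gene Sry is missing from the Y chromosome (Y-) and is carried, in part of the mice, as a transgene (SryTg), so that the gonad does not follow the sex chromosomes. XX and XY- mice had ovaries (Ov), XX;SryTg and XY-;SryTg mice had testes (Te), and the Y- chromosome is written Y from here on. Mice of each genotype either kept their gonads (Intact) or were gonadectomized at 75 days of age (GDX). All mice were fed a high-fat diet (HFD) with 60% of calories from fat from an age of 15 to 17 weeks, for 11 weeks in the intact and 15 weeks in the GDX mice by the sample labels, while the study's methods give a shorter time for the intact and a longer one for the GDX mice. The loss of the gonads therefore came with a longer diet and an older age at collection, and these cannot be told apart. No value here compares HFD with another diet.

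The unfolded protein response is the reaction of a cell to misfolded protein in the endoplasmic reticulum (ER). Its sensors IRE1, PERK and ATF6 raise ER chaperones and the machinery of ER-associated degradation (ERAD), which pulls misfolded proteins out of the ER for destruction. IRE1 splices the mRNA of the transcription factor XBP1 into its active form, and PERK phosphorylates the translation factor eIF2alpha. Other kinases, which sense amino acid shortage, viral RNA or haem shortage, phosphorylate the same factor, and this shared route is the integrated stress response. It slows translation in general and favours translation of the transcription factor ATF4, whose targets serve amino acid supply, tRNA charging and, in prolonged stress, cell death. Hepatocytes secrete large amounts of protein, and overnutrition and fatty liver are known to engage both responses.

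The libraries held 13071874 to 20045141 reads on genes (median 16577748). Levels are given as CPM, the reads of a gene scaled by the reads on all genes of that library. A floor of 3 reads was used for detection, which equalled 0.150 to 0.230 CPM and covers counting error only. Xist was at 123 CPM or more in every XX mouse and at 8.36 CPM or less in every XY mouse. The 7 hepatocyte markers, which include Alb and Apoa1, summed to 68203 to 129969 CPM in every library. The share of reads falling outside genes was 3.47% to 6.20% in intact and 8.52% to 11.3% in GDX mice, without overlap, and the TMM scaling factor, which corrects for library make-up, was 0.742 to 1.08 in intact and 0.946 to 1.24 in GDX mice. Fold changes come from edgeR's quasi-likelihood test in 1 model of all 48 mice, as log2 fold change ± SE with p-values adjusted by Benjamini-Hochberg over all tested genes, and a gene was called at an adjusted p under 0.05. In these liver pieces, fewer cells of a type and less RNA per cell cannot be told apart.

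The 10 genes differed widely in level. Scaled by exon length, Herpud1 (median of 121.5 CPM per kb) and Hspa5 (117.8 CPM per kb) stood highest, and their ranges over the 48 mice overlapped widely. Xbp1 (41.5 CPM per kb), Atf4 (32.8) and Dnajb9 (27.8) followed, again with overlapping ranges. Ddit3 (2.78 CPM per kb), Trib3 (1.88), Atf3 (1.74) and Chac1 (1.39) formed a low set, in which neighbours overlapped. Asns was far below, at a median of 0.125 CPM per kb and 0 to 32 reads per mouse. Asns therefore lay near the limit of 0.150 to 0.230 CPM in many mice, and its single values are imprecise.

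**Figure D1:**
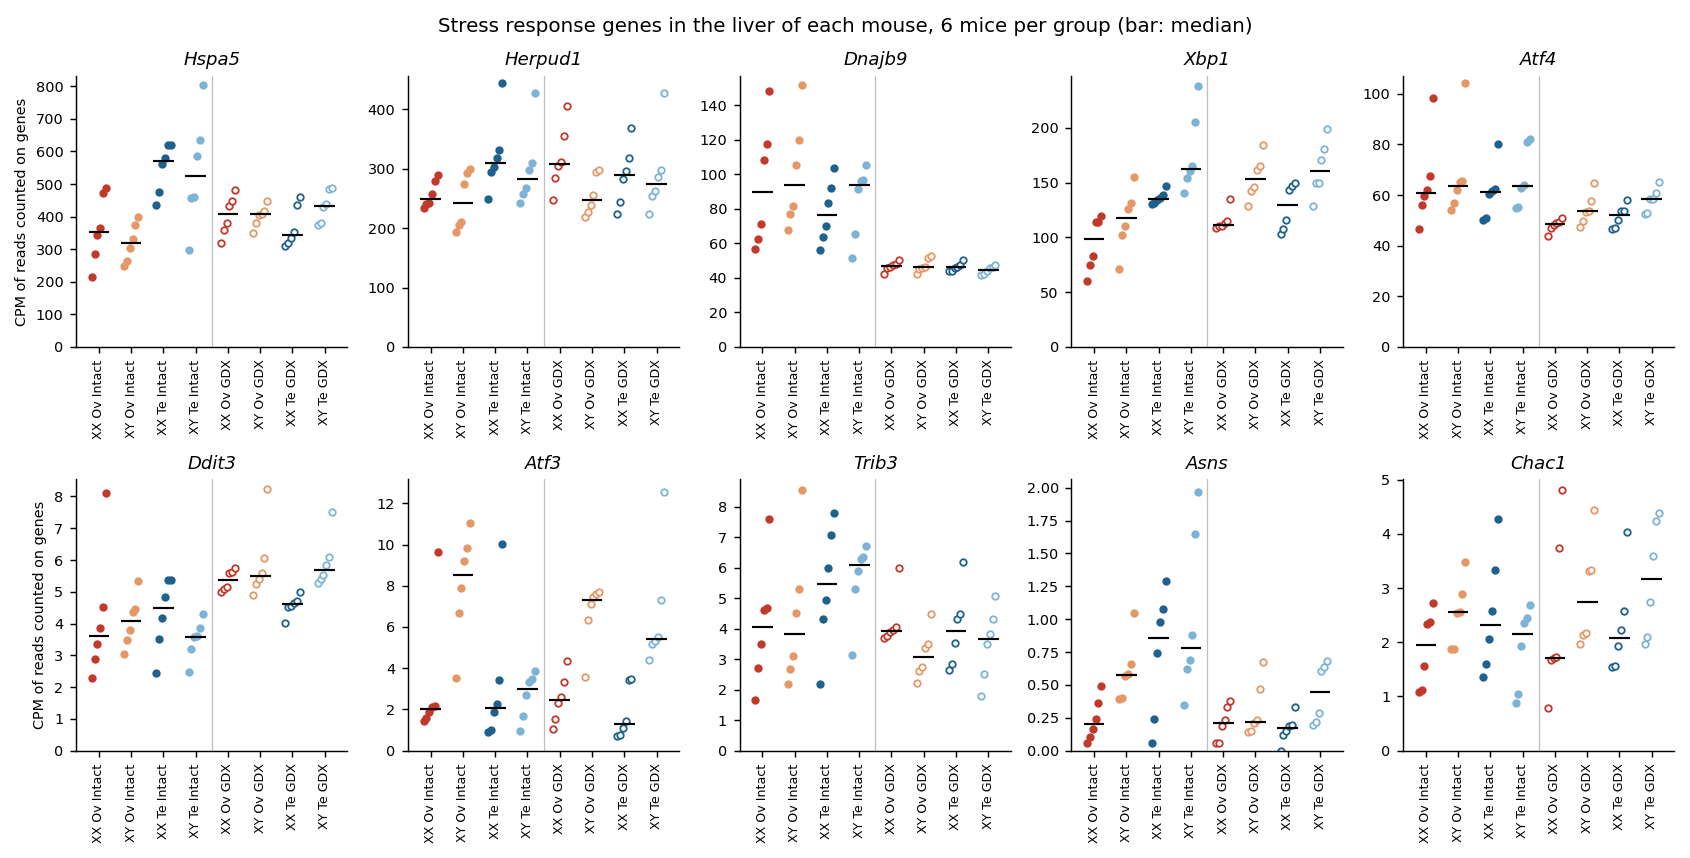
CPM of each of the 10 genes in every mouse, by group (6 mice per group; points are mice, bars are medians). Dnajb9 ranged from 51.2 to 151 CPM in the intact and from 41.5 to 52.5 CPM in the GDX mice, and Atf3 lay higher in most XY GDX mice than in any XX GDX mouse.

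The promoters of 4 of the 10 genes carried an ER stress or ATF4 element, and the stretches around them are shown because they hold the letters known for factors of both responses. The window searched ran from 250 bases before to 50 bases after each RefSeq start in GRCm38.p6, on both strands. The ER stress response element (ERSE), bound by ATF6 with NF-Y, was searched as CCAAT and CCACG with 9 bases between, its form ERSE-II as ATTGG and CCACG with 1 base between, and the ATF4 element (CARE) as TTGCATCA. Capitals mark these letters, and each sequence reads 5′ to 3′ on the strand of its gene.
Hspa5, chr2:34772013-34772055, plus strand: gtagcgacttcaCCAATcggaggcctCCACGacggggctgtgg
Herpud1, chr8:94386305-94386399, plus strand: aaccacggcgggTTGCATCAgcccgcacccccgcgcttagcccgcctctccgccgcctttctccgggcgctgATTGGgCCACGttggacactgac
Atf3, chr1:191183424-191183455, minus strand: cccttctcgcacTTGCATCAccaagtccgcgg
Chac1, chr2:119351037-119351068, plus strand: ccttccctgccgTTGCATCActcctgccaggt

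The ERSE of Hspa5 lay 65 to 47 bases before the start. Herpud1 held both kinds of element, the CARE 112 to 105 and the ERSE-II 52 to 42 bases before the start. The CARE of Atf3 lay 110 to 103 bases and that of Chac1 193 to 186 bases before the start. Among all 32851 RefSeq promoters of the same length, 39 (0.119%) held an ERSE, 12 (0.0365%) an ERSE-II and 294 (0.895%) a CARE. An ERSE was found in 7 of the 23 promoters that matched 18 of 20 other ER chaperone and folding genes (30.4%), and a CARE in 7 of the 32 promoters that matched 27 other ATF4 target genes (21.9%). The XBP1 element, searched as TGACGTGG, and the cAMP element TGACGTCA were in none of the 10 genes, against 0.676% and 1.79% of all promoters. The NF-Y box CCAAT, which is also part of the ERSE and, on the other strand, of the ERSE-II, was in 7 of the 10 genes and in 37.4% of all promoters. A match is a description of letters, and no match says only that these letters are not in this window.

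**Figure D2:**
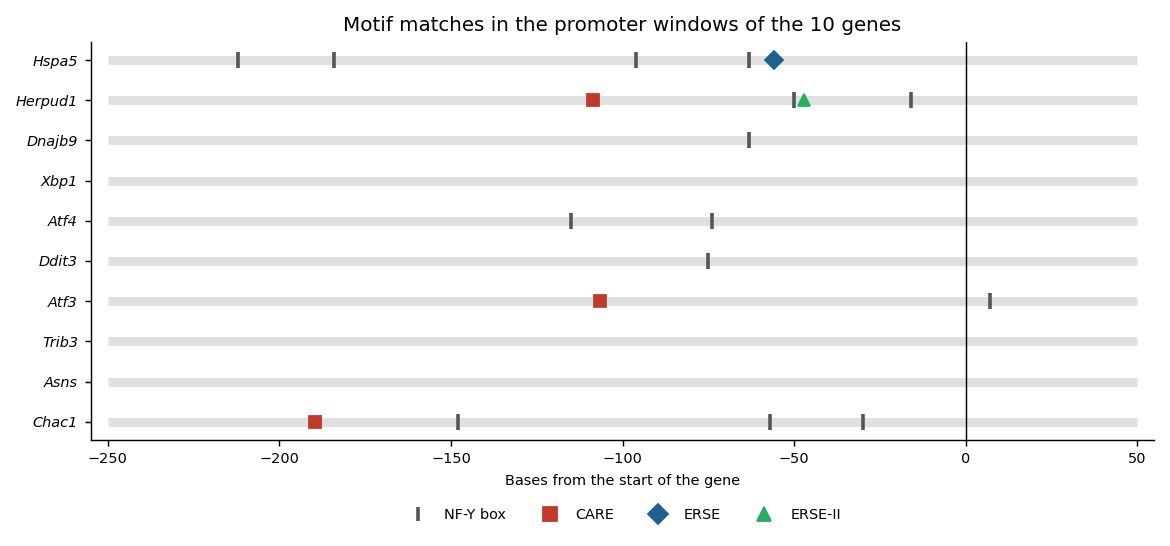
Position of the searched letters in the promoter windows of the 10 genes, in bases from the RefSeq start. Hspa5 holds the ERSE, Herpud1 the ERSE-II and a CARE, and Atf3 and Chac1 a CARE.

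The study's design implies 4 main comparisons: Ov against Te among intact mice (gonadal effect), XX against XY over all mice (chromosomal effect), GDX against Intact in mice with ovaries (ovariectomy effect) and in mice with testes (castration effect). Of the 10 genes, 3 were called in the gonadal effect, in which 25.3% of all tested genes were called, and all 3 were lower in Ov (Hspa5, Xbp1 and Asns). In the chromosomal effect 4 were called, Atf3, Xbp1 and Asns lower and Herpud1 higher in XX, against 36.7% of all genes. Ovariectomy came with 3 calls, Dnajb9 and Atf4 lower and Ddit3 higher in GDX, against 69.4% of all genes. Castration came with 7 calls, all lower in GDX (Asns, Dnajb9, Trib3, Hspa5, Atf4, Xbp1 and Herpud1), against 63.3% of all genes. The called shares among the 10 genes (30%, 40%, 30% and 70%) lay near those of all genes, and below them after ovariectomy, so the counts by themselves set these genes apart in no comparison. The gonadal effect shares its Te Intact mice with the castration effect and its Ov Intact mice with the ovariectomy effect. The castration minus the ovariectomy effect, also tested below, equals the gonadal effect minus the Ov against Te effect in GDX mice. Where Ov and Te GDX mice differ little, its calls largely restate those of the gonadal effect.

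**Figure D3:**
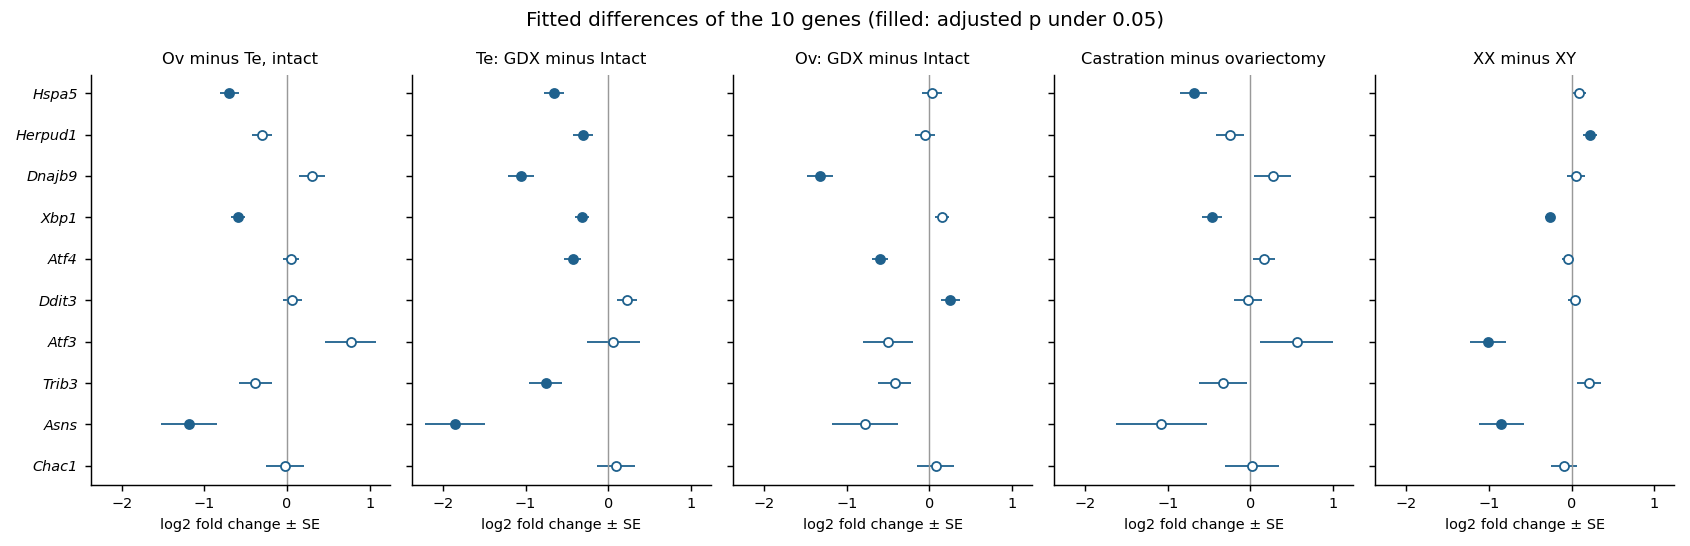
Log2 fold change with its SE for each of the 10 genes in the main comparisons (filled points: adjusted p under 0.05, edgeR). All 7 calls of the castration effect are below 0, whereas Hspa5 is at 0.03 in the ovariectomy effect.

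Scaling mattered for the comparisons of GDX with Intact and of XX with XY. With library totals in place of TMM, the median log2 fold change of all tested genes moved from 0.06 to 0.27 in the ovariectomy effect and from 0.07 to 0.27 in the castration effect, and the share of chromosomal calls that were higher in XX moved from 59.8% to 28.1%. The share of calls that were higher moved from 51.9% to 66.1% in the ovariectomy, from 52.7% to 69.5% in the castration and from 55.6% to 68.1% in the gonadal effect. Within GDX mice, the TMM factor was 0.946 to 1.07 in XX and 1.07 to 1.24 in XY mice. The median of XX against XY there moved from 0.08 to -0.10 with library totals. Its calls moved from 3001 higher and 2287 lower to 787 and 3411. CPM ranges of XX and XY GDX mice are not corrected for this factor. None of the 22 calls among the 10 genes changed direction under any alternative, and the calls lost under one are named below.

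Hspa5 encodes BiP, the main ER chaperone, which holds the stress sensors inactive until misfolded protein draws it away. Among intact mice, it ranged from 215 to 489 CPM (median 353) in XX Ov and from 248 to 399 CPM (median 318) in XY Ov. With testes, it ranged from 436 to 621 CPM (median 571) in XX Te and from 296 to 803 CPM (median 524) in XY Te. The groups overlapped, but 7 of the 12 Te mice lay above every Ov mouse and 4 of the 12 Ov mice below every Te mouse. The gonadal effect was -0.70 ± 0.12 on the log2 scale (edgeR adjusted p = 1.77e-05). After GDX, the 24 mice lay between 310.0 and 489 CPM, with medians of 407 in the 12 Ov and 404 in the 12 Te mice.

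Markers of other cells moved with the gonad among these intact mice, in a comparison that called 25.3% of all tested genes. The 8 Kupffer cell and macrophage markers summed to 312 to 1147 CPM (median 789) in Ov and 249 to 936 CPM (median 349) in Te, and 6 of the 8 were called higher in Ov. Of the 7 lymphocyte markers, 4 were higher in Ov (median log2 fold change 0.91, against 0.62 for the Kupffer markers), as were 1 endothelial and 1 stellate cell marker, and 1 biliary marker was lower. Of the 7 hepatocyte markers, 3 were lower and 0 higher in Ov, and the 4 tested neutrophil markers, of which edgeR called none and put 1 under an unadjusted p of 0.05, had a median of 0.99. Their part in the levels of Hspa5 and the genes that follow was not tested.

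Hspa5 was lower in castrated than in intact Te mice, by a log2 fold change of -0.66 ± 0.12 (edgeR adjusted p = 6.84e-06), whereas ovariectomy came with 0.03 ± 0.12 (adjusted p = 0.827). Of the 12 Te Intact mice, 7 lay above every Te GDX mouse and the lowest lay below them all. The castration effect minus the ovariectomy effect was itself called, at -0.69 ± 0.16 (edgeR adjusted p = 0.00752). Ov against Te among GDX mice was -0.01 ± 0.12 and not called, so this call largely restates the gonadal one. Under all alternatives, the omission of single mice included, Hspa5 kept all 3 calls, and the castration effect was smallest with library totals, at -0.45. The ovariectomy effect was called in no alternative. With single mice kept, it ran from -0.01 to 0.24 across them. Of the 12 Ov Intact mice, 5 lay below every Ov GDX mouse and 1 above them all. XX and XY mice overlapped almost wholly, and the chromosomal effect of 0.09 ± 0.08 was not called (adjusted p = 0.440).

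The list of 20 other ER chaperones and folding enzymes moved in the same comparisons. In the gonadal effect, 15 of the 20 were called lower in Ov and 0 higher, with a list median log2 fold change of -0.36 against 0.04 for all tested genes. Of all tested genes, 25.3% were called in that effect. In the castration effect, 14 were lower in GDX and 0 higher (median -0.35 against 0.07), but 8 lower and 2 higher with library totals. That effect called 63.3% of all tested genes, 5147 higher and 4611 lower, so the number of calls in the list lay near the share of all genes. Hyou1, an ER chaperone of the Hsp70 kind, was 20.4 to 98.5 CPM (median 42.9) in Ov Intact and 51.8 to 168 CPM (median 94.0) in Te Intact mice. Its gonadal effect was -1.14 ± 0.20 (edgeR adjusted p = 3.33e-05), with overlapping groups. Manf, a secreted ER protein induced by ER stress, was 46.2 to 166 CPM (median 80.8) in Te Intact and 18.9 to 34.8 CPM (median 26.1) in Te GDX mice, without overlap. Its castration effect was -1.95 ± 0.18 (edgeR adjusted p = 1.58e-11). In the difference between castration and ovariectomy, 8 of the 20 were called, all lower (median -0.38 against 0.04), against 5.6% of all tested genes. It was 4 without 5 intact mice of low TMM factor, described with Dnajb9, or 12 with 1 surrogate variable in the fit. Among GDX mice, Ov against Te called 0 of the 20, so these calls too largely restate the gonadal effect.

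Ovariectomy split the same list, with 8 of the 20 higher and 7 lower in GDX (median 0.15 against 0.06), and 2 in each direction were called with 1 surrogate variable. The main fit called 69.4% of all tested genes there. The residuals of Hspa5 from its group means correlated across the 48 mice with those of 14 of the 20 at r above 0.5. Its closest genes over all tested genes were Pdia4 (r = 0.842) and Pdia6 (r = 0.804), both protein disulfide isomerases of the ER. All genes of a mouse come from the same library, so such r values describe the mice and carry no test.

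**Figure D4:**
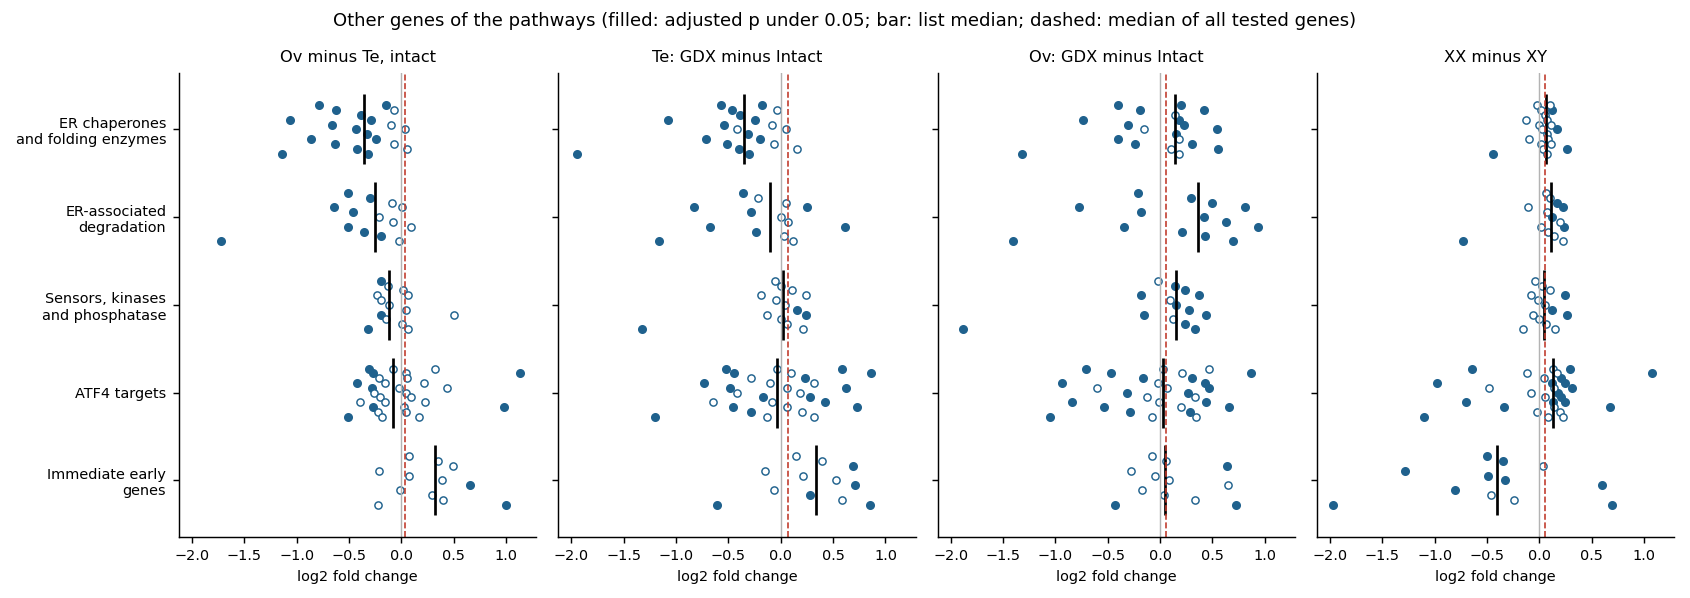
Log2 fold changes of the other genes of the pathways by list in the main comparisons (filled points: adjusted p under 0.05; bar: list median; dashed line: median of all tested genes). The ER chaperones centre at -0.36 in the gonadal and at -0.35 in the castration effect, and at 0.15 in the ovariectomy effect.

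Herpud1 encodes an ER membrane protein that helps assemble the ERAD machinery. It ranged from 193 to 300.1 CPM (median 249.7) in Ov Intact mice and from 242 to 444 CPM (median 299.9) in Te Intact mice. The upper part of Te and the lower part of Ov were separate, with 6 of 12 mice of each outside the range of the other. The gonadal effect of -0.30 ± 0.12 was not called (edgeR adjusted p = 0.0577), but it was called with library totals (-0.31), with 1 surrogate variable (-0.40) and without 5 intact mice of low TMM factor (-0.46). In Te GDX mice Herpud1 ranged from 223 to 427 CPM (median 285), within most of the Te Intact range. The castration call (-0.31 ± 0.12, edgeR adjusted p = 0.0238) was lost with library totals (-0.10, adjusted p = 0.390), with 1 surrogate variable (-0.17, adjusted p = 0.193) and without either of 2 intact mice, XX Te 18333 or XY Te 20024.

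In the chromosomal effect Herpud1 was the sole gene of the 10 called higher in XX (0.22 ± 0.08, edgeR adjusted p = 0.0383). The ranges were 224 to 444 CPM in XX (median 292) and 193 to 428 CPM in XY (median 265) and overlapped almost wholly. The call was lost under 6 of the other alternatives, library totals among them (0.12, adjusted p = 0.260), and without any 1 of 18 mice. An antisense gene, Gm15890, overlaps Herpud1 over 535 bases. The sources used here do not give the strand setting of the counting, so it is not known how reads on these bases were counted. The gonadal effect called 25.3% of all tested genes. Among 14 other ERAD genes, 8 were lower and 0 higher in Ov Intact than in Te Intact mice (median -0.26 against 0.04). The lowest was Derl3, a channel component of ERAD, at 0.109 to 1.97 CPM (median 0.713) in Ov Intact and 1.19 to 5.69 CPM (median 2.58) in Te Intact mice (-1.72 ± 0.28, edgeR adjusted p = 1.1e-05).

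Dnajb9 encodes ERdj4, a co-chaperone of BiP that acts in ERAD and at the sensor IRE1, and it was the sole gene of the 10 whose GDX and intact mice did not overlap with either kind of gonad. In intact mice it ranged from 56.6 to 148 CPM (median 89.6) in XX Ov, 67.9 to 151 CPM (median 93.5) in XY Ov, 56.3 to 103 CPM (median 76.7) in XX Te and 51.2 to 105 CPM (median 93.5) in XY Te. In GDX mice all 24 values lay between 41.5 and 52.5 CPM, with group medians of 44.8 to 46.9. Within each of the 4 genotypes, no GDX mouse reached the lowest intact mouse. How many of all tested genes were separated in this way was not counted. Of all tested genes, 69.4% were called in the ovariectomy and 63.3% in the castration effect, so such a separation need not be particular to Dnajb9. The ovariectomy effect was -1.33 ± 0.16 (edgeR adjusted p = 2.5e-09) and the castration effect -1.06 ± 0.16 (adjusted p = 4.5e-07), and their difference was not called (0.27 ± 0.22, adjusted p = 0.457). Neither the gonadal effect (0.30 ± 0.16, adjusted p = 0.154) nor the chromosomal effect (0.05 ± 0.11, adjusted p = 0.752) was called.

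Markers of several cell types differed between intact and GDX mice as well. Of all tested genes, 69.4% were called in the ovariectomy and 63.3% in the castration effect. At such shares, counts of called markers by themselves do not show a shift in a cell type. After ovariectomy, 3 of the 4 tested neutrophil markers were lower and 1 higher (median log2 fold change -2.29), 4 of 7 lymphocyte markers (median -0.77) and 2 of 8 Kupffer markers were lower, and 3 of 7 hepatocyte markers were higher and 3 lower. Of the other lists, 2 stellate cell markers were higher and 1 lower, 1 endothelial marker went each way, and 3 biliary markers were higher. After castration, 2 neutrophil markers were lower and 1 higher (median -1.88), 1 lymphocyte marker went each way, 2 Kupffer markers were higher and 1 lower, and 2 hepatocyte markers went each way. There, 2 stellate cell, 2 endothelial and 2 biliary markers were higher, and 1 endothelial and 1 biliary marker lower. The neutrophil sums overlapped, at 3.71 to 714 CPM in Ov Intact and 2.24 to 63.6 CPM in Ov GDX, and at 2.16 to 108 CPM in Te Intact and 2.51 to 139.5 CPM in Te GDX mice. The hepatocyte sums overlapped too, at 79227 to 129969 CPM in Ov Intact and 80906 to 119141 CPM in Ov GDX, and at 68203 to 114648 CPM in Te Intact and 87686 to 116022 CPM in Te GDX mice. Their part in the differences of Dnajb9, Hspa5, Atf4, Trib3 and the other genes between intact and GDX mice was not tested.

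The spread of Dnajb9 also differed, with a within-group SD on the log2 scale of 0.560 in intact and 0.0958 in GDX mice. Dnajb9 moved with library make-up. Of the 5 intact mice of highest Dnajb9, 4 had a TMM factor under 0.85, and the 5 intact mice with such a factor (3 XX Ov, 1 XY Ov and 1 XY Te) had 95.9 to 151 CPM (median 118), against 51.2 to 120 CPM (median 76.8) in the other 19. Without those 5 mice, the ovariectomy effect was -0.78 and the castration effect -1.004, and both were still called. With 1 surrogate variable in the fit, they were -0.55 and -0.64, again called. Residuals of 2331 tested genes correlated with those of Dnajb9 at r above 0.7, the closest being Bzw1 (r = 0.956) and 1110059E24Rik (r = 0.955), so its differences between mice were shared with a large part of the transcriptome. The part of library make-up in the difference between intact and GDX mice was not tested.

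**Figure D5:**
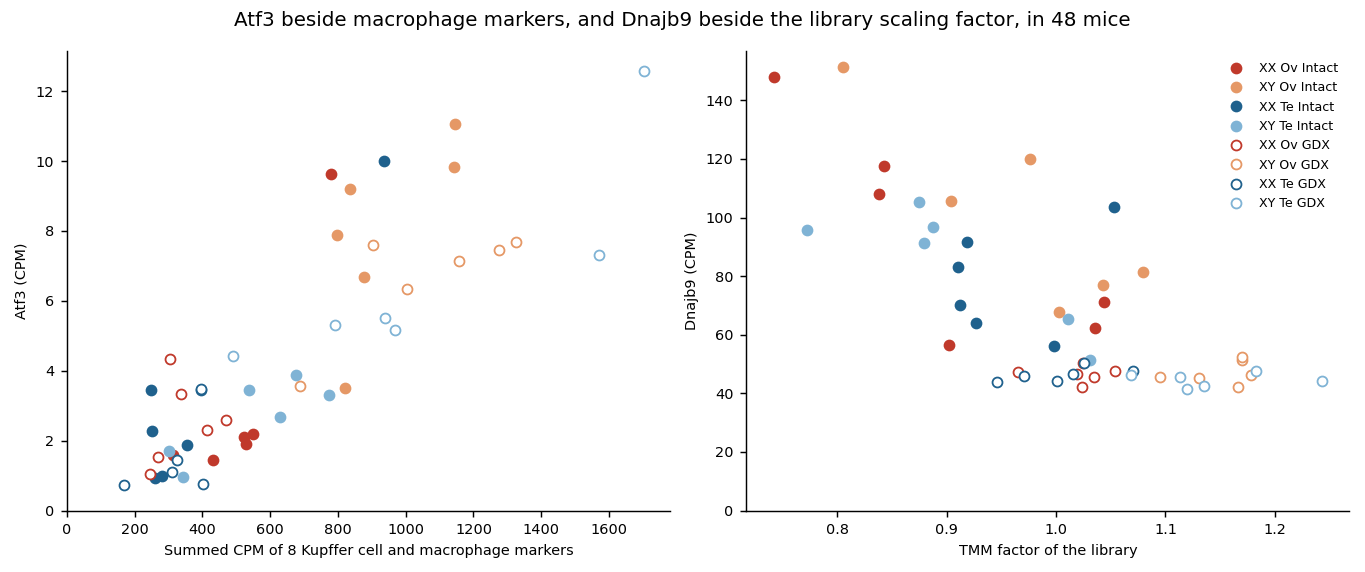
Atf3 CPM against the summed CPM of 8 Kupffer cell and macrophage markers (left) and Dnajb9 CPM against the TMM factor (right) in each of the 48 mice (filled points intact, open points GDX). The 5 intact mice with a TMM factor under 0.85 lie at 95.9 to 151 CPM of Dnajb9, and the 2 XX intact mice near 10 CPM of Atf3 have marker sums of 781 and 936 CPM.

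Other ERAD and translation genes split between the same groups. Eif2s1, the alpha subunit of eIF2 that the stress kinases phosphorylate, was 45.3 to 181 CPM (median 99.8) in Ov Intact and 30.4 to 37.1 CPM (median 36.3) in Ov GDX mice, without overlap. Its ovariectomy effect was -1.89 ± 0.20 (edgeR adjusted p = 2.33e-10), and its castration effect -1.33 ± 0.20 (adjusted p = 3.6e-07). Selenos, an ERAD selenoprotein, was 28.9 to 75.9 CPM in Ov Intact and 21.0 to 26.99 CPM in Ov GDX mice (-1.40 ± 0.16, adjusted p = 5.84e-10). Os9, a lectin that delivers glycoproteins to ERAD, went the other way, with 57.5 to 181 CPM (median 105) in Ov Intact and 203 to 242 CPM (median 223) in Ov GDX mice. Its ovariectomy effect was 0.93 ± 0.13 (edgeR adjusted p = 3.41e-08). Residuals of Dnajb9 correlated with those of Eif2s1 at r = 0.948, with Selenos at r = 0.897 and with Os9 at r = -0.782. Of the 14 ERAD genes, 9 were higher and 5 lower after ovariectomy, and 4 and 5 with 1 surrogate variable. After castration 2 were higher and 6 lower, and in the chromosomal effect 4 were higher and 1 lower in XX. The shares of all tested genes called were 69.4% in the ovariectomy, 63.3% in the castration and 36.7% in the chromosomal effect.

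Xbp1 encodes the transcription factor that IRE1 activates by splicing, and the counts hold all its mRNA, spliced and unspliced. Among intact XX mice it ranged from 60.3 to 120 CPM (median 98.7) with ovaries and from 130.3 to 147 CPM (median 135) with testes, without overlap. Among intact XY mice it ranged from 70.9 to 155 CPM (median 118) with ovaries and from 141 to 239 CPM (median 163) with testes, and 5 of the 6 Ov mice lay below every Te mouse. The gonadal effect was -0.60 ± 0.09 (edgeR adjusted p = 1.03e-06) and was called in every alternative. After GDX the Ov and Te ranges overlapped, at 108 to 185 CPM (median 132) and 103 to 199 CPM (median 148).

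Castration came with a lower Xbp1 (-0.32 ± 0.09, edgeR adjusted p = 0.00162), a call that was lost with library totals (-0.11, adjusted p = 0.366). Ovariectomy came with 0.16 ± 0.09, which was not called (adjusted p = 0.105) but was called with library totals (0.35). The difference between castration and ovariectomy was called (-0.47 ± 0.12, edgeR adjusted p = 0.0141), but not with library totals (-0.46, adjusted p = 0.0694) or without the 5 mice of low TMM factor (-0.39, adjusted p = 0.0659). Ov against Te among GDX mice was -0.13 ± 0.09 and not called, so this difference too largely restates the gonadal effect.

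Sex chromosomes also went with Xbp1. The 24 XX mice ranged from 60.3 to 149.6 CPM (median 116) and the 24 XY mice from 70.9 to 239 CPM (median 152), and 13 XY mice lay above every XX mouse. The chromosomal effect was -0.26 ± 0.06 (edgeR adjusted p = 0.000542) and was called in every alternative. It was the 1 call of the 10 genes within intact mice (-0.32 ± 0.09, edgeR adjusted p = 0.00947), where 10.7% of all genes were called. Within GDX mice, where XX ranged from 103 to 149.6 CPM and XY from 128 to 199 CPM, the effect of -0.21 ± 0.09 was not called (adjusted p = 0.0592), although 7 other alternatives and the omission of any 1 of 10 mice gave a call.

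Atf4 mRNA, whose translation is the switch of the integrated stress response, was lower in GDX mice of both gonad types. It ranged from 46.6 to 104 CPM (median 62.1) in Ov Intact and from 43.8 to 64.7 CPM (median 49.7) in Ov GDX mice. In mice with testes it ranged from 50.1 to 82.3 CPM (median 61.9) when intact and from 46.6 to 65.3 CPM (median 53.6) after GDX. The ranges overlapped, with 5 Ov Intact and 3 Te Intact mice above every GDX mouse of the same gonad. The ovariectomy effect was -0.60 ± 0.10 (edgeR adjusted p = 1.15e-06) and the castration effect -0.43 ± 0.10 (adjusted p = 0.000207). Both calls held in every alternative, and both were smallest with library totals, at -0.38 and -0.22. Like Dnajb9, Atf4 had a narrower within-group spread after GDX (SD of 0.120 against 0.313 on the log2 scale). The gonadal effect was 0.05 ± 0.10 and the chromosomal effect -0.05 ± 0.07, neither called.

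Ddit3 encodes CHOP, the pro-apoptotic factor downstream of ATF4, and was low at 36 to 149 reads per mouse. It ranged from 2.28 to 8.10 CPM (median 3.84) in intact and from 4.03 to 8.24 CPM (median 5.33) in GDX mice. Ovariectomy came with 0.25 ± 0.12, just called (edgeR adjusted p = 0.0498), and the call was lost without any 1 of 37 mice, with 1 surrogate variable (0.11, adjusted p = 0.514), with no filter beyond 1 count (0.24, adjusted p = 0.112) and without the 5 mice of low TMM factor (0.14, adjusted p = 0.329). Castration came with 0.23 ± 0.12, not called (adjusted p = 0.0894) but called with library totals (0.43). Mars, which encodes a tRNA synthetase, lies on the opposite strand and overlaps Ddit3 in the NCBIM37 annotation, as does RP24-341K21.6. These overlaps sum to 83 bases, and without the strand setting it is not known how reads on them were counted.

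Atf3 encodes a stress-induced transcription factor that is also an immediate early gene, and it stood apart by sex chromosomes. Among GDX mice it ranged from 0.718 to 4.33 CPM (median 1.92) in XX and from 3.58 to 12.6 CPM (median 6.74) in XY, and 11 of the 12 mice of each lay outside the range of the other. The chromosomal effect within GDX mice was -1.45 ± 0.32 (edgeR adjusted p = 0.000309), in a comparison where 34.3% of all genes were called. Among intact mice the groups were uneven, with 3.51 to 11.0 CPM (median 8.54) in XY Ov but 0.968 to 3.87 CPM (median 3.001) in XY Te. XX Ov Intact mice ranged from 1.44 to 9.62 CPM (median 1.996) and XX Te Intact mice from 0.927 to 10.01 CPM (median 2.07). In each of these XX groups a single mouse made the top of the range.

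Over all mice, the chromosomal effect on Atf3 was -1.01 ± 0.22 (edgeR adjusted p = 0.000268), called in every alternative. Within intact mice it was -0.58 ± 0.31 and not called (adjusted p = 0.256), but it was called without mouse XX Ov 81790 or without mouse XX Te 14614, the mice that made those tops. The test of whether the chromosomal effect differed between intact and GDX mice called none of the 10 genes, nor did any of them reach an unadjusted p under 0.05, whereas 2.12% of all genes were called. The Wald test of DESeq2 called 0 of the 10 there and put 1 under an unadjusted 0.05. The gonadal effect on Atf3 of 0.77 ± 0.31 was not called (adjusted p = 0.0609), although DESeq2's Wald test called it (0.78, adjusted p = 0.0454), as did edgeR without any 1 of 4 mice. After castration Atf3 ranged from 4.41 to 12.6 CPM (median 5.41) in XY Te and from 0.718 to 3.47 CPM (median 1.27) in XX Te mice. The median was thus above that of intact mice in XY Te and below it in XX Te. The castration effect, a mean over both, was 0.06 ± 0.32 and not called (edgeR adjusted p = 0.879).

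Markers of other cell types moved with Atf3. The 8 Kupffer cell and macrophage markers summed to 167 to 470 CPM in XX GDX and 491 to 1704 CPM in XY GDX mice, without overlap, and 7 of the 8 were called lower in XX in the chromosomal effect. The 5 neutrophil markers summed to 2.16 to 37.6 CPM in XX and 6.01 to 714 CPM in XY mice, and all 4 that were tested were lower in XX. Of the other marker lists, 4 of 7 lymphocyte and 1 of 5 sinusoidal endothelial markers were lower in XX, and 2 of 6 stellate cell, 2 of 5 biliary and 1 of 7 hepatocyte markers were higher. In the chromosomal effect, 36.7% of all tested genes were called. Every Kupffer marker was above 0 in every mouse, whereas the neutrophil marker Ly6g had a median of 0 in XX and 0.0575 CPM in XY mice. The 2 XX intact mice of highest Atf3 had Kupffer marker sums of 781 and 936 CPM, against 249 to 549 CPM in the other 10. Their 12 immediate early genes summed to 174 and 179 CPM, against 67.8 to 99.4 CPM in the other 10. The part of these cells in the difference in Atf3 was not tested.

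The immediate early list went with Atf3. Of its 12 genes, 7 were lower and 2 higher in XX (median -0.40 against 0.05), and within GDX mice 8 were lower and 1 higher (median -0.59). The shares of all tested genes called were 36.7% over all mice and 34.3% within GDX mice. Fos, a subunit of AP-1, was 0.278 to 3.18 CPM (median 1.29) in XX and 0.484 to 14.2 CPM (median 5.90) in XY mice, with a chromosomal effect of -1.97 ± 0.19 (edgeR adjusted p = 7.06e-12). Gadd45b, a stress and growth arrest gene, was 0.487 to 5.87 CPM in XX and 0.4662 to 7.80 CPM in XY mice (-1.28 ± 0.18, adjusted p = 1.13e-07). It was also higher in Ov than in Te Intact mice (1.002 ± 0.255, adjusted p = 0.00349). Fosb went the other way (0.69 ± 0.24, adjusted p = 0.0206), at a level of at most 1.05 CPM. In residuals across the 48 mice, the genes closest to Atf3 were Lgals3 (r = 0.894) and Klf6 (r = 0.880), and 9 of the 12 immediate early genes, 5 of the 8 Kupffer markers and all 4 tested neutrophil markers had an r above 0.5.

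Trib3 encodes a pseudokinase induced by ATF4 and CHOP that dampens insulin signalling. It ranged from 2.17 to 7.78 CPM (median 5.93) in Te Intact and from 1.80 to 6.18 CPM (median 3.68) in Te GDX mice. The ranges overlapped, and the castration effect of -0.76 ± 0.20 (edgeR adjusted p = 0.00136) was called in every alternative. In mice with ovaries the ranges were 1.67 to 8.55 CPM (median 4.005) when intact and 2.22 to 5.99 CPM (median 3.72) after GDX, and the ovariectomy effect of -0.42 ± 0.20 was not called (adjusted p = 0.0629). It was called with 1 surrogate variable (-0.57, adjusted p = 0.0463), without the 5 mice of low TMM factor (-0.57, adjusted p = 0.0269) and without any 1 of 7 mice. The difference between both effects was not called (-0.33 ± 0.29, adjusted p = 0.471).

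Asns encodes asparagine synthetase, a classic ATF4 target of amino acid shortage, and rested on few reads. It ranged from 0.0556 to 1.96 CPM (median 0.810) in Te Intact and from 0 to 0.681 CPM (median 0.207) in Te GDX mice. The median of Te GDX mice thus lay at the limit set by 3 reads. The castration effect was -1.85 ± 0.36 (edgeR adjusted p = 2.81e-05). In Ov Intact mice it ranged from 0.05995 to 1.05 CPM (median 0.398), and the gonadal effect of -1.19 ± 0.34 (adjusted p = 0.00902) was lost without the 5 mice of low TMM factor (-0.93, adjusted p = 0.101). Over all mice it ranged from 0 to 1.29 CPM (median 0.214) in XX and from 0.142 to 1.96 CPM (median 0.577) in XY, with a chromosomal effect of -0.85 ± 0.27 (edgeR adjusted p = 0.0114).

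Chac1, a glutathione-degrading enzyme induced by ATF4, was called in none of these comparisons. It ranged from 0.788 to 4.80 CPM, or 13 to 77 reads, over the 48 mice, and its effects lay between -0.09 and 0.09 in the 4 main comparisons, each with an SE of 0.16 or 0.23.

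The list of 32 other ATF4 targets, 29 of them tested, moved in both directions. In the castration effect 7 were higher and 8 lower (median -0.04 against 0.07), and in the ovariectomy effect 8 were higher and 9 lower (median 0.03 against 0.06). In the gonadal effect 2 were higher and 6 lower in Ov (median -0.08 against 0.04). The shares of all tested genes called in these effects were 63.3%, 69.4% and 25.3%, in the same order. Nupr1, a stress-induced transcriptional regulator, was higher in Ov Intact (1.40 to 8.84 CPM, median 4.196) than in Te Intact mice (0.968 to 4.41 CPM, median 1.45), by 1.13 ± 0.24 (edgeR adjusted p = 0.000465). Fgf21, a liver hormone of fasting and stress, was 0.992 to 10.2 CPM (median 2.79) in XX and 0.248 to 7.68 CPM (median 1.41) in XY mice (1.08 ± 0.25, edgeR adjusted p = 0.00045). In the chromosomal effect 11 were higher and 5 lower in XX (median 0.13 against 0.05), but 2 higher and 5 lower with library totals. The main fit called 36.7% of all tested genes there.

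At single genes, GDX went with large differences. Eprs1, which charges tRNA with glutamate and proline, was 48.8 to 113 CPM (median 71.5) in Ov Intact and 139 to 161 CPM (median 147) in Ov GDX mice, without overlap (0.87 ± 0.10, edgeR adjusted p = 1.52e-09). Vldlr, a lipoprotein receptor induced by ATF4, was 4.13 to 19.0 CPM (median 11.999) in Te Intact and 12.4 to 32.6 CPM (median 22.3) in Te GDX mice (0.86 ± 0.16, adjusted p = 1.51e-05). Of the immediate early genes, Fos was higher after castration (0.85 ± 0.27, adjusted p = 0.00584), at 0.278 to 5.57 CPM in Te Intact and 0.838 to 14.2 CPM in Te GDX mice. The 14 genes of the sensors, eIF2alpha kinases and phosphatase subunits showed 2 calls higher and 1 lower after castration, 8 and 3 after ovariectomy, 0 and 3 in the gonadal and 3 and 0 in the chromosomal effect. The shares of all tested genes called in these comparisons were 63.3%, 69.4%, 25.3% and 36.7%, in the same order. With 1 surrogate variable, the ovariectomy counts became 1 and 2.

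Comparisons of the remaining kinds held few calls in the model of all mice. The chromosomal effect within GDX mice called Atf3 lower and Herpud1 higher (0.33 ± 0.12, edgeR adjusted p = 0.0262). The Herpud1 call was lost under 4 of the other alternatives, library totals among them (0.15, adjusted p = 0.327), and without any 1 of 7 mice. The model of all mice takes 1 spread per gene, although Dnajb9 varied less in GDX mice (within-group SD of 0.0958 against 0.560). With the GDX groups alone, the chromosomal effect also called Dnajb9 higher in XX (0.15, edgeR adjusted p = 0.00322, against 0.354 in the model of all mice). Xbp1 (-0.26, adjusted p = 0.00531) and Trib3 (0.43, adjusted p = 0.0262) were called there too. That fit called 7297 of 14857 tested genes. Dnajb9 CPM overlapped, at 42.2 to 50.5 in XX and 41.5 to 52.5 in XY GDX mice. Across the alternatives other than the omission of single mice, the Dnajb9 effect ran from 0.02 to 0.20, and no other alternative called it. The difference between castration and ovariectomy called Hspa5 and Xbp1, against 5.6% of all genes. Ov and Te mice that had both lost their gonads were called different at none of the 10 genes and at 0.0908% of all genes. There, edgeR put 0 of the 10 under an unadjusted p of 0.05, and DESeq2's Wald test likewise called 0 and put 0 under it.

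The 10 genes did not vary as a block from mouse to mouse. Pearson's r between the residuals of pairs of these genes ranged from -0.354 to 0.480 over the 48 mice (45 pairs, median 0.0232), and none passed a two-sided permutation test within groups with 100000 resamples after Benjamini-Hochberg adjustment. At an unadjusted p under 0.05 there were 9 pairs by Pearson's r and 6 by Spearman's rho. Within the 24 GDX mice alone, 1 pair passed, Xbp1 with Atf4 (r = 0.760, permutation p = 7e-05, adjusted p = 0.00315 over the 45 pairs). There, Spearman's rho was 0.670 (permutation p = 0.00128), and r was 0.662 (permutation p = 0.00259) without the 2 mice farthest from the median of Xbp1. Within the 24 intact mice no pair passed.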

How the data were processed

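RNA was isolated from snap frozen liver and sequenced from KAPA mRNA HyperPrep libraries. Per the labels and the study's methods, the authors aligned reads to GRCm39 with STAR (version 2.7.10a), and they deposited whole-number counts per gene, not normalized, which they tested with DESeq2 (version 1.36.0). The annotation release and strand setting are not given in the sources used here. Reads that no gene received, in 4 summary lines (25.5% to 42.3% of reads), were left out. Symbols were matched to 31020 identifiers (56.0%), and 14 older symbols were looked up by alias.

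The 10 genes and the pathway and marker lists were chosen with earlier results of these data known. Groups came from the sample labels. The counts were modelled with edgeR (version 4.0.16, under R version 4.3.3) as 8 group means, using TMM, filterByExpr and robust quasi-likelihood dispersions, with Benjamini-Hochberg adjustment over 15414 genes. Group means of CPM were computed without TMM. On simulated counts for the castration effect, the fit was tested before use. Of other pathway genes, the 2 highest and 2 lowest called log2 fold changes per main comparison were named, together with, per gene of the 10, the 2 tested genes of highest Pearson r in residuals of log2 CPM (not all of them are reported here), and marker genes stand by their lists. Residual correlations were tested by two-sided permutation within groups in Python (version 3.11.15) with numpy (version 2.4.6), pandas (version 2.3.3) and scipy (version 1.17.1), and plots used matplotlib (version 3.10.9). Exon lengths, chromosomes and overlapping genes came from the NCBIM37 annotation, and promoters from RefSeq on GRCm38.p6, neither of which is the authors' build.

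The alternatives were library totals or DESeq2's size factors as the scaling, its Wald test (DESeq2 version 1.42.0), a filter of only 1 count over all mice, a filter of 10 counts in each mouse, 47 mice without XX Te Intact mouse 95271, the groups of a comparison alone, 1 surrogate variable from sva (version 3.50.0), each mouse left out in turn and, chosen after seeing the data, 43 mice without the 5 of a TMM factor under 0.85. In every pair of mice of a group, counts differed by more than sampling noise (chi-square per gene of 7.74 to 308 in 120 pairs).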

Additional observations from a re-analysis of the deposited data

Results flagged for a closer look

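In 11 of the 80 combinations of gene and group, the highest or lowest of the 6 mice lay far from the other 5 by Dixon's test. At this threshold chance flags about 1 in 20 such sets, or 4 of 80. For Atf3, the highest mouse had 9.62 CPM in XX Ov Intact (others 1.44 to 2.18), 10.01 CPM in XX Te Intact (others 0.927 to 3.45) and 12.6 CPM in XY Te GDX (others 4.41 to 7.33), and the lowest mouse of XY Ov GDX had 3.58 CPM (others 6.35 to 7.68). The highest Herpud1 was 427 CPM in XY Te GDX (others 223 to 299) and 428 CPM in XY Te Intact (others 242 to 309.8). The highest Ddit3 was 8.24 CPM in XY Ov GDX (others 4.90 to 6.06) and 7.52 CPM in XY Te GDX (others 5.26 to 6.11). Single high mice were also found for Atf4 in XY Ov Intact, at 104 CPM (others 54.0 to 65.6), for Trib3 in XX Ov GDX, at 5.99 CPM (others 3.68 to 4.05), and for Xbp1 in XX Ov GDX, at 135 CPM (others 108 to 115).

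The effect of losing the gonads differed between mice with testes and mice with ovaries by a test of the difference itself for 2 of the 10 genes. On the log2 scale, the castration effect minus the ovariectomy effect was -0.69 for Hspa5 (edgeR adjusted p = 0.00752) and -0.47 for Xbp1 (edgeR adjusted p = 0.0141). This difference equals the gonadal effect minus the Ov against Te effect in GDX mice, which was called at neither gene. It is therefore not a result separate from the gonadal effect on both. The Xbp1 call was lost in the 2 alternatives given with it in the report.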

How the results depend on the processing

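Of 90 values (10 genes in 9 comparisons), 22 were called. Of these 15 kept the call in every alternative that tested them and 7 lost it in at least 1, and 12 that were not called gained a call in at least 1. Asns did not pass the filter of 10 counts in each mouse, so its calls were not tested there. No called value changed sign. The number of the 10 genes called moved by more than 1.5 times in 4 cases. It was 2 in the chromosomal effect with at least 10 counts in every mouse. It was 5 in the chromosomal effect within GDX mice with those groups alone, where 7297 of 14857 tested genes were called. In the difference between castration and ovariectomy it was 1 with library totals and likewise 1 without the mice of low TMM factor. Leaving out each mouse in turn gave 3 to 5 calls in the gonadal, 3 to 4 in the chromosomal, 2 to 4 in the ovariectomy and 6 to 8 in the castration effect. It gave 1 to 3 in the chromosomal effect within intact mice, 1 to 4 within GDX mice, 0 to 0 in the interaction of chromosomes with GDX, 2 to 2 in the difference between castration and ovariectomy, and 0 to 0 between former gonads in GDX mice. No paired analysis was possible because the sample labels give each mouse an identifier of its own and no replicate number that links groups.

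Counts over all tested genes moved as follows. Without the mice of low TMM factor, 2273 genes were called in the gonadal effect and 1193 in the interaction of chromosomes with GDX. With the groups of a comparison alone, the counts were 1693 in the gonadal effect, 819 in the chromosomal effect within intact mice and 33 between former gonads. With 1 surrogate variable they were 6838 in the ovariectomy effect and 2618 in the chromosomal effect within intact mice. With at least 10 counts in every mouse they were 940 in the comparison of XX with XY in intact mice and 3491 in GDX mice, and 7 between former gonads, where fewer genes were tested. Library totals gave 545 in the interaction, DESeq2's Wald test 661 there and 25 between former gonads, and no filter beyond 1 count 506 in the difference between castration and ovariectomy. Within GDX mice alone, 1 of the 45 pairs of genes passed, against 0 over all mice. Other than where fewer genes or mice were tested, the cause was not tested. For Asns, at 0 to 32 reads per mouse, depth limits each value.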
